A study of Mus musculus with 12 samples.

Results

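The 10 genes described here belong to the tumour necrosis factor (TNF) superfamily: the ligands Tnfsf4 and Tnfsf9 and the receptors Tnfrsf10b, Fas, Tnfrsf1a, Eda2r, Cd40, Tnfrsf9, Tnfrsf18 and Tnfrsf1b. They were taken by their symbol in the platform annotation out of 22180 genes with a named probe set, and each of the 10 is measured by a single probe set. The family was chosen because Tnfsf4, Tnfrsf10b, Eda2r and Fas rose strongly after irradiation. The irradiation differences of the 10 members are therefore given as a description, without a test. The contrasts between genotypes, which the choice did not use, were tested.

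TNF superfamily ligands are mostly membrane proteins that act as trimers and gather their receptors on the target cell. Receptors with a death domain, among them FAS and the TRAIL receptor, recruit FADD and caspase-8 and can start apoptosis. Receptors without one bind TRAF adaptors and signal to NF-kB, as CD40, 4-1BB and GITR do in lymphocytes. Fas, Tnfrsf10b and Eda2r are known targets of p53, the transcription factor that DNA damage activates, and TNF is a known regulator of blood stem cells.

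Expression was measured with Affymetrix arrays in LSK cells, bone marrow cells that lack lineage markers and carry SCA1 and cKIT, a fraction rich in blood stem and progenitor cells. The 4 groups of 3 arrays were Wild Type untreated, Wild Type 4 Gy irradiated, NIPA KO untreated and NIPA KO 4 Gy irradiated, called untreated and irradiated WT and KO below. All mice were older than 20 months and had been backcrossed to C57BL/6 for at least 10 generations. KO mice lack NIPA, encoded by Zc3hc1, and the sources used here do not state which part of the gene was removed. Each array holds LSK cells merged from 3 mice, irradiated or not after a preculture of 30 min, and harvested after 3 h. The medium of all groups held the cytokines SCF (50 ng/ml), IL-6 and IL-3 (each 10 ng/ml) and fetal calf serum at 30%. Nothing in the labels says whether untreated and irradiated cells came from the same pools. In WT cells the deviations of same-numbered arrays from their group means correlated across doses at 0.42 to 0.49. In KO cells untreated arrays 1, 2 and 3 correlated best with irradiated arrays 1, 3 and 2, at 0.47, 0.44 and 0.52. The fit treated all arrays as unpaired, so p-values measure the spread between these arrays, which may be partly technical. Values are the deposited log2 expression values, in which a difference of 1 is a doubling, and levels are not compared between genes. In RNA from a mixture of cells, fewer cells of a kind and less RNA per cell cannot be told apart.

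Zc3hc1 was low in all KO arrays, at 5.61 to 5.82 against 7.67 to 8.47 in WT arrays. Of the stem and progenitor markers, 7 of 9 were measured and all 7 exceeded the brightness limit used for testing (5.29, the 40th percentile of all values) in at least 3 arrays. After irradiation 1 of the 7 fell in WT and 2 in KO cells, beside 2.70% and 3.20% of all genes tested that fell. Flt3, a cytokine receptor of early progenitors, fell by 1.30 (limma adjusted p = 0.00058) in WT and by 0.96 (adjusted p = 0.0037) in KO cells, and the transcription factor gene Meis1 by 0.74 (adjusted p = 0.014) in KO cells. The T and NK cell markers stayed low. Of the 8 measured, 6 fell short of that limit, Cd3e, Cd4 and Cd8a among them. The summed log2 level of all 8 was 38.2 to 38.8 in untreated WT and 39.3 to 39.6 in irradiated WT arrays. It was 38.9 to 40.9 in untreated KO and 38.2 to 40.2 in irradiated KO arrays. The B cell markers Blnk, Cd79a and Pax5 varied between arrays of a group. Of the 5 B cell markers measured, 4 passed the limit. The summed log2 level of all 5 was 29.3 to 34.0 in untreated WT and 29.3 to 31.6 in irradiated WT arrays. It was 31.4 to 38.2 in untreated KO and 30.5 to 38.6 in irradiated KO arrays. Blnk was 9.75 in untreated KO array 2 and 9.34 in irradiated KO array 3, and 6.07 to 7.81 in the other arrays. The summed log2 level of the 4 measured erythroid markers was lower after irradiation, at 24.3 to 24.6 against 27.3 to 28.8 in WT and 24.2 to 26.0 against 28.9 to 30.6 in KO cells. Much of this was Car1, which fell by 2.24 (limma adjusted p = 0.00054) in WT and by 3.16 (adjusted p = 4.6e-05) in KO cells. Epor fell by 0.67 (adjusted p = 0.016) in KO cells, and no other erythroid marker passed the test in either genotype. Of the 7 dendritic cell markers 0 rose in WT and 1 in KO cells, beside 2.13% and 2.74% of all genes. This was Itgax, at 0.99 (limma adjusted p = 0.039) in KO and 0.79 (adjusted p = 0.1025) in WT cells. Flt3 is also in that list. No monocyte, granulocyte, mast cell or megakaryocyte marker passed. The summed log2 level of monocyte markers was 44.9 to 46.2 in untreated and 44.0 to 44.5 in irradiated WT arrays. In KO arrays it was 43.8 to 49.1 and 42.7 to 49.5. The part of these markers in the results below was not tested.

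Tnfsf4, the OX40 ligand, which costimulates activated T cells, showed the widest range of the members. In WT cells it read 7.45, 8.41 and 6.92 on the log2 scale without and 9.76, 11.63 and 11.32 with irradiation. In KO cells it read 6.98, 8.36 and 7.60 without and 10.47, 11.57 and 11.72 with irradiation. Every irradiated array lay above every untreated array of both genotypes, and the first irradiated array was the lowest of its group in both. Group means were 7.59 ± 0.75, 10.90 ± 1.00, 7.65 ± 0.69 and 11.25 ± 0.68 (SD, n = 3), in the order untreated WT, irradiated WT, untreated KO, irradiated KO. The irradiation difference corresponds to 9.92-fold in WT and 12.2-fold in KO cells. Tnfsf4 held rank 2 in WT and rank 1 in KO cells among the differences of the 15348 genes tested. It was also among the most variable genes within groups, with a residual SD of 0.79 that reached the 99.4th percentile of all genes tested, whose median was 0.18.

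Tnfsf9, the 4-1BB ligand, moved much less. Its values were 7.09, 7.42 and 6.68 in untreated and 7.76, 7.42 and 7.28 in irradiated WT cells, and 7.41, 6.78 and 7.01 in untreated and 8.03, 7.32 and 7.44 in irradiated KO cells. The groups overlapped in both genotypes, and the mean difference was 0.43 (SE 0.23) in WT and 0.54 (SE 0.23) in KO cells. It was 0.23 in WT without untreated array 3 and 0.32 in KO without irradiated array 1.

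**Figure D1:**
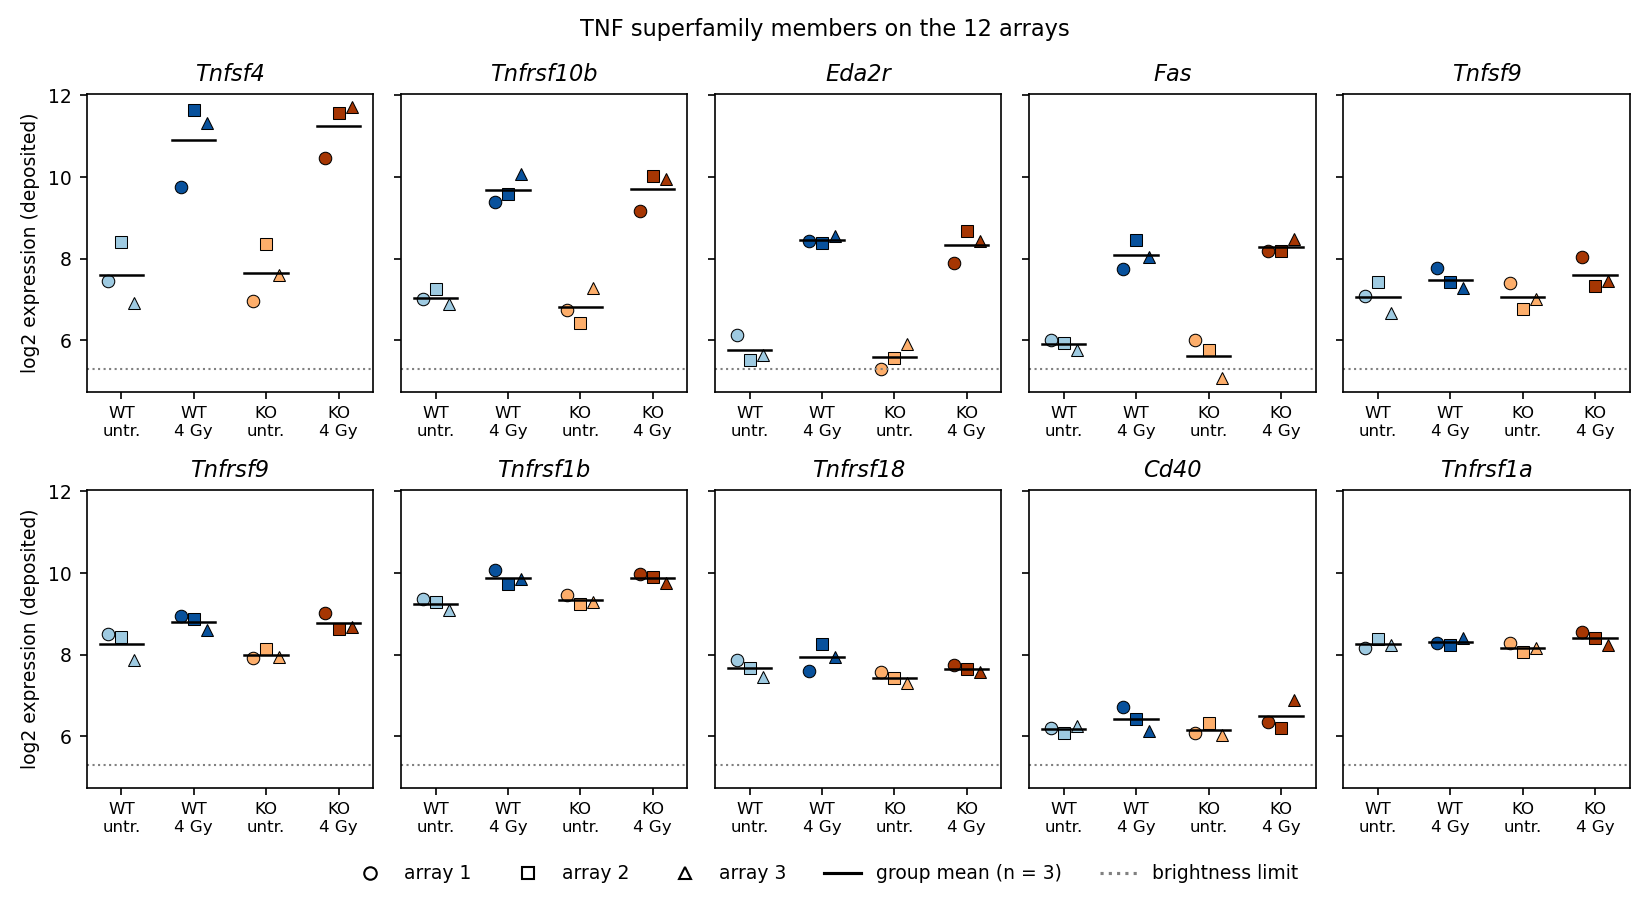
Log2 expression of the 10 members (vertical axis) on the 12 arrays, by group (horizontal axis); symbols give the replicate number, bars the group mean (n = 3) and the dotted line the brightness limit of 5.29. In the panels of Tnfsf4, Tnfrsf10b, Eda2r and Fas all 6 irradiated arrays lie above all 6 untreated ones.

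Of the receptors with a death domain, Tnfrsf10b and Fas were far higher after irradiation and Tnfrsf1a was not. Tnfrsf10b, the mouse receptor of the death ligand TRAIL, had log2 values of 7.0, 7.25 and 6.88 in untreated and 9.38, 9.58 and 10.08 in irradiated WT cells. Its KO values were 6.74, 6.43 and 7.27 without and 9.17, 10.02 and 9.96 with irradiation. The lowest irradiated array, at 9.17, stood well above the highest untreated one, at 7.27. Group means were 7.04 ± 0.19, 9.68 ± 0.36, 6.81 ± 0.43 and 9.72 ± 0.47 (SD, n = 3), and the folds were 6.21 in WT and 7.49 in KO cells.

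Fas, the receptor of FAS ligand, was close to the brightness limit without irradiation. It read 6.01, 5.94 and 5.77 in untreated WT cells and 6.01, 5.78 and 5.07 in untreated KO cells, the last below the limit of 5.29. After irradiation it read 7.76, 8.47 and 8.03 in WT and 8.19, 8.19 and 8.48 in KO cells. The folds were 4.53 in WT and 6.35 in KO cells. Tnfrsf1a, the TNF receptor with a death domain, overlapped between the groups in both genotypes. Its values ran from 8.16 to 8.40 in untreated and 8.24 to 8.42 in irradiated WT cells, and from 8.06 to 8.29 and 8.24 to 8.55 in KO cells. The mean difference was 0.05 (SE 0.12) in WT and 0.23 (SE 0.12) in KO cells, and that in WT cells turned below 0 under 2 of 22 alternatives, with a lowest value of -0.01. Its spread within groups was narrow, with a residual SD of 0.12.

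Eda2r, the X-linked receptor of the A2 form of ectodysplasin, known as XEDAR, followed Tnfrsf10b closely. It read 6.14, 5.51 and 5.65 in untreated and 8.42, 8.39 and 8.55 in irradiated WT cells, and 5.29, 5.57 and 5.92 in untreated and 7.89, 8.69 and 8.44 in irradiated KO cells. The 3 irradiated WT arrays lay closest together (SD 0.08) of all groups of the 4 leading genes. Folds were 6.45 in WT and 6.71 in KO cells. As for Fas, the untreated values were near the limit.

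Upstream sequence was looked up for the members that moved together and for those that moved little. RefSeq promoter windows (GRCm38.p6) were at hand for 6 of the 10 members, with 7 start sites between them. None was at hand for Tnfsf4, Tnfsf9, Tnfrsf10b and Cd40, so of the 4 leading genes only Fas and Eda2r were searched. The 250 bases before each start were searched on both strands for the p53 half-site motif and the NF-kB motif, each 10 letters long, and on the gene's strand for TATAAA. The p53 half-site motif, which 7.13% of all 32851 RefSeq windows of this length hold, matched in 0 of the 7. The NF-kB motif, held by 3.90% of windows, matched in 1 of the 7, the second start of Tnfrsf9. There 3 overlapping matches, 2 on the gene's strand and 1 on the other, lie 43 to 33 bases before the start. TATAAA, held by 7.59% of windows, occurs before the start of Eda2r, at bases 58 to 53. The windows of Fas and Eda2r, both strongly higher after irradiation, and that of the second start of Tnfrsf9 are shown 5′ to 3′ on the gene's strand, with the matched motif in capitals. A match is only a match of letters, and these windows do not include introns.
Fas, chr19:34290409-34290658, plus strand, no match: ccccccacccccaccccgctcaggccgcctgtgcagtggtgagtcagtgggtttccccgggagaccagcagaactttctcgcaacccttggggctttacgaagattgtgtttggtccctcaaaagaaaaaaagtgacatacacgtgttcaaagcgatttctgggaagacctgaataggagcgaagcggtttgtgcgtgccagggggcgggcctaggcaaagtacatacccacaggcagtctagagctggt
Eda2r, chrX:97377210-97377459, minus strand, TATAAA in capitals: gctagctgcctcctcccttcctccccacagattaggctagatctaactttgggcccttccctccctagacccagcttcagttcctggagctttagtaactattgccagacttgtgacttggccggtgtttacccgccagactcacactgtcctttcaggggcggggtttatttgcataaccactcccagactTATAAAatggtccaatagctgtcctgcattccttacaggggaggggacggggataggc
Tnfrsf9, second start, chr4:150927749-150927998, plus strand, NF-kB motif in capitals: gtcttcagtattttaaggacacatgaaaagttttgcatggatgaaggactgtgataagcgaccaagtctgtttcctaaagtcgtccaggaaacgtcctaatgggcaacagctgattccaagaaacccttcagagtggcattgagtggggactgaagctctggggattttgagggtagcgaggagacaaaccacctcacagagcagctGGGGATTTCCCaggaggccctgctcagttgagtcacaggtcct

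The costimulatory receptors and the TNF receptor without a death domain formed a group of smaller differences. Tnfrsf9, which encodes 4-1BB, the receptor of the Tnfsf9 product, read 8.50, 8.44 and 7.87 in untreated and 8.94, 8.88 and 8.61 in irradiated WT cells. In KO cells it read 7.91, 8.13 and 7.95 without and 9.02, 8.62 and 8.68 with irradiation. The irradiated arrays were above the untreated ones in both genotypes, by 0.54 (SE 0.17) in WT and 0.78 (SE 0.17) in KO cells on average, and by 0.34 in WT without untreated array 3. Tnfrsf1b, the TNF receptor that signals through TRAF2, read 9.37, 9.29 and 9.11 in untreated and 10.08, 9.73 and 9.86 in irradiated WT cells, and 9.47, 9.24 and 9.28 in untreated and 9.97, 9.91 and 9.75 in irradiated KO cells. Here too the groups were apart, by 0.64 (SE 0.12) and 0.54 (SE 0.12), about a 1.5-fold difference (1.55 and 1.46).

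Tnfrsf18 and Cd40 showed no clear separation. Tnfrsf18, which encodes GITR, read 7.86, 7.68 and 7.46 in untreated and 7.61, 8.27 and 7.95 in irradiated WT cells, so the groups overlapped. Its KO values were lower and close together, at 7.57, 7.43 and 7.31 without and 7.75, 7.66 and 7.58 with irradiation, where the groups just failed to overlap. Cd40, a receptor of B cells and antigen-presenting cells, read 6.21, 6.09 and 6.26 in untreated and 6.71, 6.43 and 6.13 in irradiated WT cells. In KO cells it read 6.09, 6.33 and 6.04 without and 6.36, 6.20 and 6.90 with irradiation, and the groups overlapped in both genotypes. The highest Cd40 value of each KO group fell on the array with the highest Blnk value, and the part of B cells in it was not tested. Without irradiated KO array 3 the difference was 0.13 in place of 0.34 in KO cells. In WT cells the highest Cd40 value, on the first irradiated array, went with a Blnk value of 6.32.

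All 10 members had a mean difference above 0 after irradiation in both genotypes, from 0.05 to 3.31 in WT and from 0.23 to 3.61 in KO cells. The median was 0.59 in WT and 0.66 in KO cells, beside 0.00 and -0.02 over all genes tested. There was a wide gap between the lowest of the 4 leading genes, Fas at 2.18 and 2.67, and the highest of the other 6, Tnfrsf1b at 0.64 in WT and Tnfrsf9 at 0.78 in KO cells. The irradiated arrays lay wholly above the untreated ones for 6 members in WT and 7 in KO cells, beside 11.4% and 10.2% of all genes tested. Since the family was chosen on these differences, the counts describe the choice and support nothing further.

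**Figure D2:**
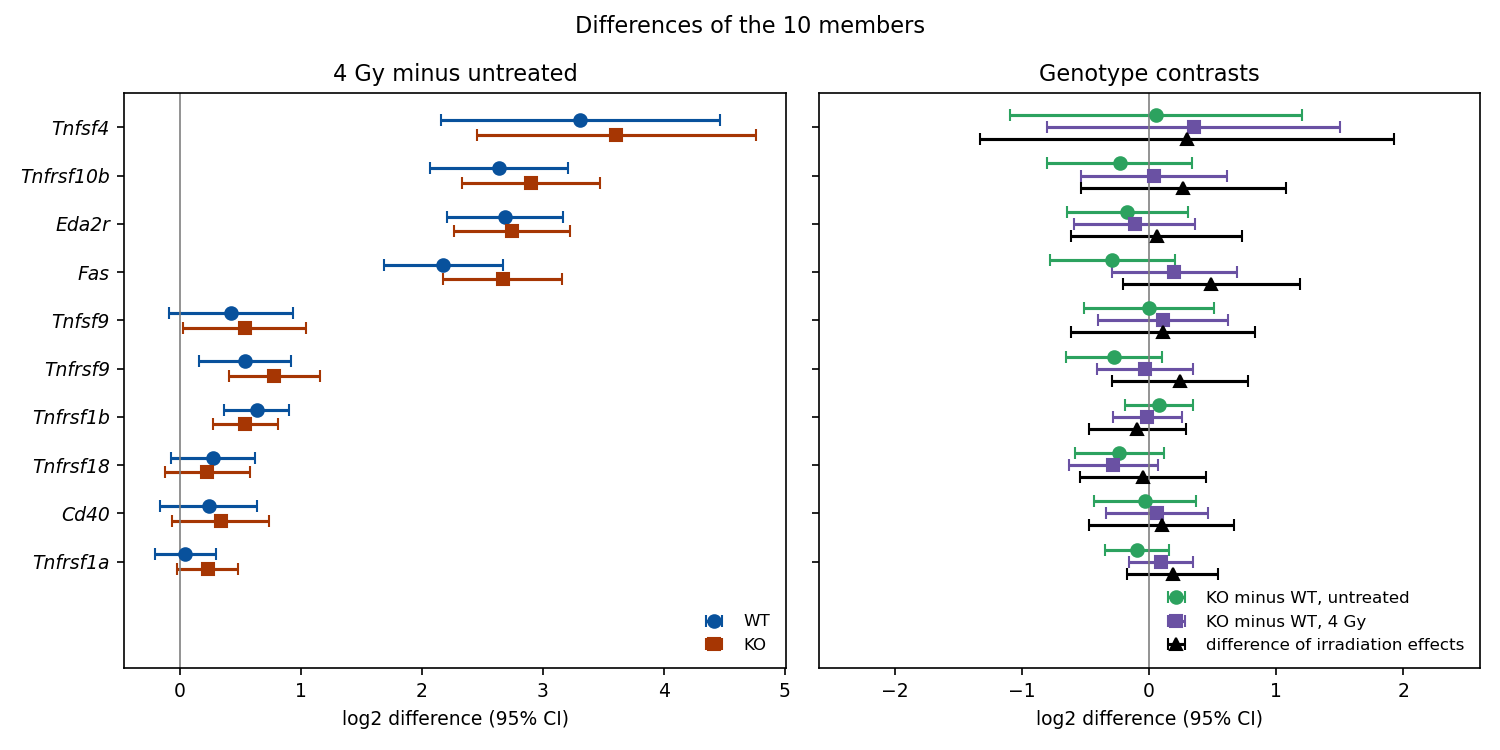
Log2 differences (horizontal axes, points with 95% confidence intervals from the limma fit) of the 10 members, irradiated minus untreated on the left and the genotype contrasts on the right (n = 3 arrays per group). On the left the 4 leading genes stand at 2.18 or more; on the right all 30 intervals include 0.

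Whether loss of NIPA shifts this family was tested in the contrasts that the choice of members did not use. In untreated cells none of the 10 members differed between KO and WT cells by the limma test (adjusted p = 0.9998 for each), and the arrays of the genotypes overlapped for all 10, where 7.96% of all genes did not overlap. Over all genes 1 of 15348 passed (0.00652%), Zc3hc1 itself, with 330 (2.15%) at an unadjusted p under 0.05, of which none was a member. The largest differences were those of Fas, -0.29 (95% interval -0.78 to 0.20), and Tnfrsf9, -0.27 (-0.65 to 0.10). Without untreated KO array 3, where Fas was below the limit, its difference was -0.02. For Tnfrsf1a and Tnfrsf1b the intervals were narrower, from -0.35 to 0.16 and from -0.19 to 0.35. A p that misses the threshold does not show equal levels, and for Tnfsf4 the interval of -1.10 to 1.2 includes a doubling either way.

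After irradiation the result was alike in form. None of the 10 members passed the limma test between the genotypes (adjusted p = 0.9995 for each), 1 gene of 15348 did (0.00652%), again Zc3hc1, and 471 (3.07%) had an unadjusted p under 0.05 with no member among them. Irradiated KO and WT arrays overlapped for all 10 members, where 6.40% of all genes did not overlap. The largest differences were those of Tnfsf4, 0.35 (-0.80 to 1.5), and Tnfrsf18, -0.28 (-0.63 to 0.07). Tnfrsf18 differed by -0.23 without and -0.28 with irradiation, and both intervals include 0.

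The difference between the irradiation effects of the genotypes passed the test for 0 of the 10 members and 0 of 15348 genes in limma (0%), with 235 genes (1.53%) and no member at an unadjusted p under 0.05. The estimate was largest for Fas, whose rise was greater in KO cells by 0.49 (95% interval -0.21 to 1.19, limma adjusted p = 0.9999), and was 0.22 without untreated KO array 3. It was 0.30 (-1.33 to 1.92) for Tnfsf4, 0.27 (-0.54 to 1.08) for Tnfrsf10b and 0.06 (-0.62 to 0.73) for Eda2r. Of the 10 estimates 8 were above 0, and they come from the same arrays and are not independent. Of the 30 member estimates in these 3 contrasts, 17 changed sign under at least 1 alternative, and none passed the test under any. For the 4 leading genes both irradiated groups stood above both untreated ones, and groups of equal dose overlapped.

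Spread within groups followed the array for several members. The first irradiated array of each genotype was the lowest of its group for 3 of the 4 leading genes, in WT for Tnfsf4, Tnfrsf10b and Fas and in KO for Tnfsf4, Tnfrsf10b and Eda2r. For the other 6 members the same arrays were the highest of their group in 4 of 6 cases in WT and 5 of 6 in KO cells. The untreated arrays numbered 1 were the highest for 3 of these 6 members in WT and 4 in KO cells. For the 4 leading genes they were the lowest for 0 in WT and 2 in KO cells, and the highest for 2 and 1. The share of all genes tested with such orders was not counted. Over all genes tested the first irradiated arrays also deviated most within their groups. The SD of the deviations was 0.23 against 0.21 and 0.20 in WT, and 0.26 against 0.20 and 0.22 in KO cells. The counts are therefore not read as a trait of this family. On the first irradiated arrays Tnfsf4 deviated most, by -1.15 in WT and -0.78 in KO cells from its group mean. Tnfsf9 deviated there by 0.27 and 0.43 upward. Kit, the receptor of SCF by which the cells were sorted, was also high on these arrays, at 11.23 and 11.10 against 9.97 to 10.38 on the other irradiated arrays and 10.71 to 11.32 on untreated ones. The labels give no shared day or batch for a replicate number, and its part was not tested. Without the 2 first irradiated arrays the Tnfsf4 difference was 3.88 in WT and 4.00 in KO cells. Of all arrays, untreated WT array 3 had the mean deviation over the 10 members that was largest in size, at -0.22. That array was the lowest of its group for 7 members and the highest for 1, and it enters every WT irradiation difference. Over all genes tested the SD of its deviations was 0.16, against 0.20 and 0.17 on untreated WT arrays 1 and 2. The share of all genes that were lowest on it was not counted.

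**Figure D3:**
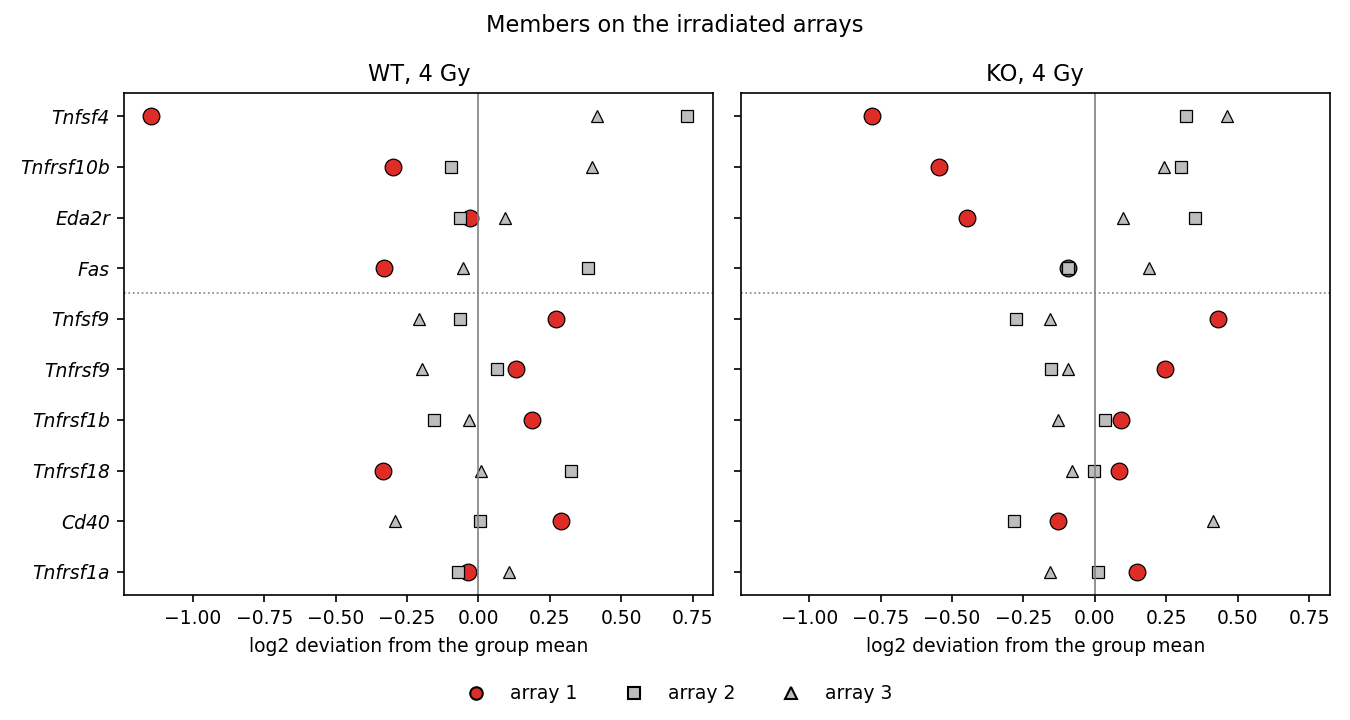
Deviation of each irradiated array from its group mean (horizontal axis, log2 units) for the 10 members, WT on the left and KO on the right, with array 1 in red; the dotted line parts the 4 leading genes from the other 6. Array 1 lies at -1.15 (WT) and -0.78 (KO) for Tnfsf4 and to the right of 0 for Tnfsf9, Tnfrsf9 and Tnfrsf1b in both genotypes.

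The genes with the pattern most like that of each leading member were sought among all genes tested by the root mean square difference of centred log2 values over the 12 arrays, a measure that the irradiation response dominates. For Tnfrsf10b these were Plk2, a kinase induced by p53, at 0.23, Epha2, a receptor tyrosine kinase, at 0.25 and Eda2r at 0.26. For Eda2r they were Epha2 at 0.23, Ephx1, an epoxide hydrolase, at 0.26 and Tnfrsf10b at 0.26. Fas was nearest to Lacc1 at 0.26, Slc19a2, a thiamine transporter, at 0.31 and Dcxr at 0.31. Tnfsf4 had no near match, with Phlda3 at 0.62, Mir34a at 0.63 and Slc7a11, the cystine transporter, at 0.66.

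The genes next to the leading members in the genome did not share their size of change, as far as they were measured. By the RefSeq order of protein-coding genes in GRCm38.p6, Tnfrsf10b lies between Chmp7 and Rhobtb2, which differed by 0.08 and -0.10 in WT and by -0.04 and -0.30 in KO cells. Fas lies between Acta2, at -0.03 and -0.06, and Ch25h, the cholesterol 25-hydroxylase, at 0.27 in WT and 0.93 in KO cells. Tnfsf18, which encodes the GITR ligand and follows Tnfsf4, stayed below the brightness limit with a mean of 3.86. No test was run on these neighbours.

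None of the measured partners of the leading members passed the test after irradiation. The partners were singled out after their values were seen. Tnfrsf4, which encodes OX40, the receptor of the Tnfsf4 product, differed by 0.08 in WT and 0.14 in KO cells (limma adjusted p = 0.833 and 0.694). Fasl, the ligand of FAS, differed by -0.33 and -0.41 (adjusted p = 0.323 and 0.204), at levels of 5.12 to 6.04 near the limit. Eda, the gene of ectodysplasin, fell short of the limit for testing, with a mean of 4.90.

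Tnfsf10, which encodes TRAIL, the ligand of the Tnfrsf10b product, read 7.87, 7.64 and 7.21 in untreated and 7.78, 6.28 and 5.77 in irradiated WT cells. In KO cells it read 7.12, 6.94 and 7.16 without and 7.09, 6.35 and 5.52 with irradiation. The first irradiated array of each genotype stayed at the untreated level and the other arrays lay below it. The difference was -0.96 in WT and -0.75 in KO cells (limma adjusted p = 0.265 and 0.405). Without the first irradiated arrays it was -1.54 and -1.14 (adjusted p = 0.0054 and 0.018), an alternative chosen after seeing the data.

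Among the other TNF family genes, Cd27 fell and the decoy receptor gene Tnfrsf23 rose after irradiation in both genotypes. The gene lists used from here on were chosen with earlier results of these data known. Of 16 other ligands 9 were tested, 5 were below the limit and 2 shared a probe set with other genes. None of the 9 passed in limma in either genotype (median 0.09 in WT and 0.17 in KO cells, beside 0.00 and -0.02 over all genes). At an unadjusted limma p under 0.05 there were 0 in WT and 3 in KO cells, and the share of all genes there was not counted. Of 20 other receptors, all tested, 1 rose and 1 fell in WT and 2 rose and 2 fell in KO cells (median 0.03 and -0.00), beside 2.13% of all genes that rose and 2.70% that fell in WT and 2.74% and 3.20% in KO cells. Cd27, a costimulatory receptor also found on blood progenitors, read 8.57, 9.18 and 8.89 in untreated and 7.79, 7.85 and 7.63 in irradiated WT cells. It read 8.69, 8.54 and 8.77 in untreated and 7.86, 7.65 and 7.0 in irradiated KO cells. No irradiated array reached an untreated one, and Cd27 fell by 1.12 (SE 0.21, limma adjusted p = 0.0080) in WT and by 1.16 (SE 0.21, adjusted p = 0.0059) in KO cells. This call held under all 22 alternatives in both genotypes.

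Tnfrsf23 encodes a mouse TRAIL receptor without a death domain. It read 6.71, 6.68 and 6.23 in untreated and 7.30, 7.30 and 7.53 in irradiated WT cells, and 6.72, 6.35 and 6.23 in untreated and 8.0, 7.11 and 7.42 in irradiated KO cells. It rose by 0.84 (SE 0.22, limma adjusted p = 0.045) in WT and by 1.08 (SE 0.22, adjusted p = 0.012) in KO cells. In WT the call was lost under 11 of 22 alternatives, with adjusted p of up to 0.185. Tnfrsf26, a relative of Tnfrsf23, rose in KO cells by 1.18 (SE 0.26, adjusted p = 0.020) and had 0.66 in WT cells (adjusted p = 0.186). In KO cells the Tnfrsf26 call was lost under 3 and the Tnfrsf23 call under 2 of 22 alternatives. Tnfrsf22, another relative, had 0.04 and 0.23 (adjusted p = 0.930 and 0.541), and cross-hybridisation between these similar genes was not tested. Tnfrsf13c, the BAFF receptor, fell in KO cells by 0.45 (adjusted p = 0.047), a call lost under 13 of 22 alternatives, and had -0.37 in WT cells (adjusted p = 0.101). A call in 1 genotype only is no difference in response, and no interaction passed the test.

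**Figure D4:**
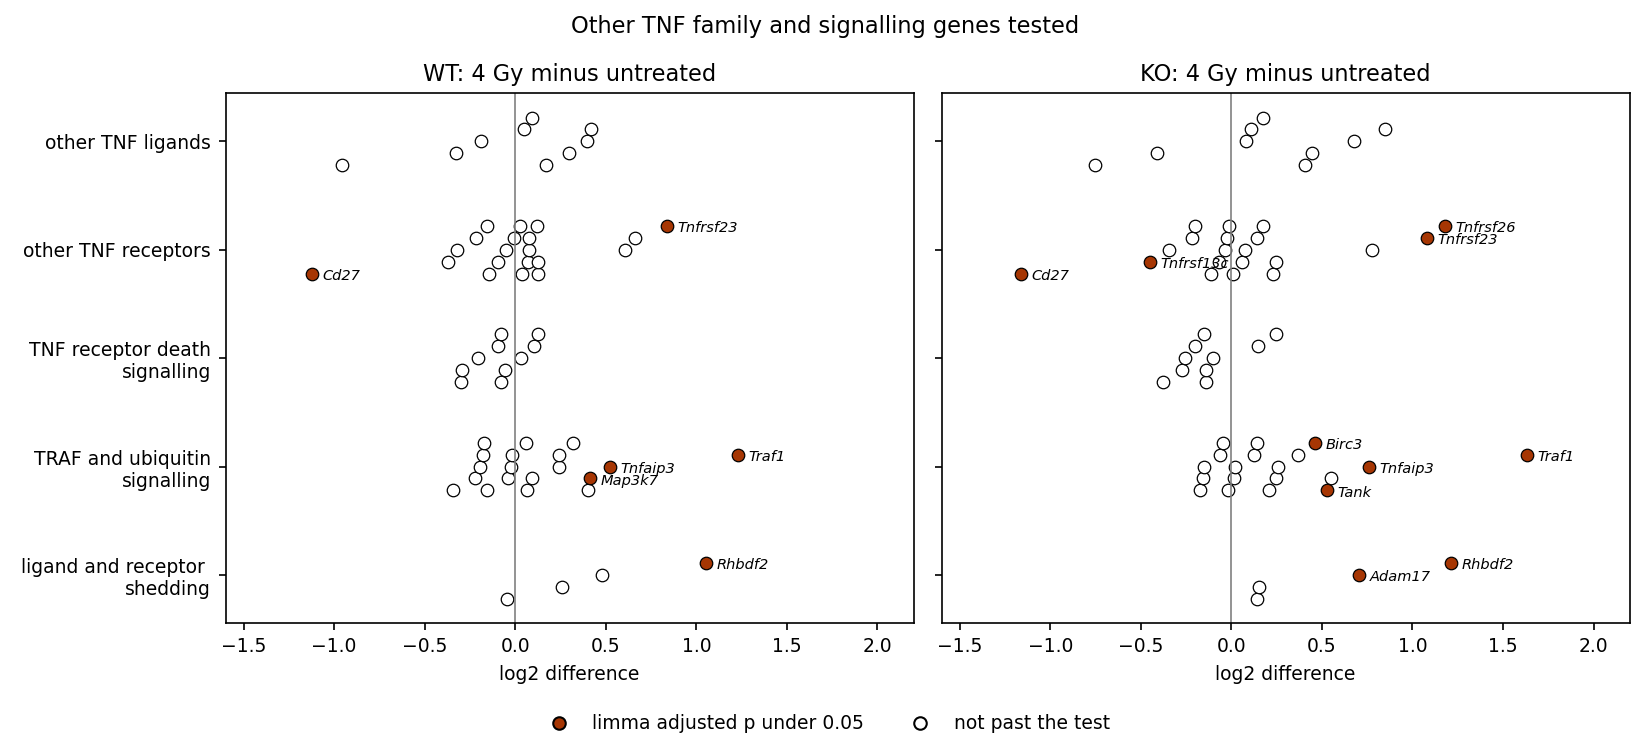
Log2 differences (horizontal axis), irradiated minus untreated, of the tested genes of 5 lists, WT on the left and KO on the right; filled points passed the limma test at an adjusted p of 0.05 and are named. Traf1 stands highest, at 1.23 and 1.63, and Cd27 lowest, at -1.12 and -1.16, while no point of the death signalling list is filled.

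The genes that signal below the receptors were taken in a death signalling and a TRAF list. Of 13 death signalling genes 10 were tested, and in limma none passed in either genotype, with 2 in WT and 1 in KO cells at an unadjusted p under 0.05 (median -0.08 in WT and -0.15 in KO cells). Over all genes 4.83% passed at the adjusted threshold in WT and 5.94% in KO cells. The share of all genes at an unadjusted p under 0.05 was not counted for the irradiation contrasts. Fadd, the adaptor of the death receptors, had 0.03 and -0.26, Casp8 -0.06 and -0.27, and Cflar, the inhibitor of caspase-8 activation, 0.13 and 0.15. Without the first irradiated arrays of both genotypes Casp8, at -0.52 (adjusted p = 0.027), and Diablo, at -0.49 (adjusted p = 0.023), passed in KO cells. Of 20 TRAF and ubiquitin genes 19 were tested, and 3 rose in WT and 4 in KO cells, with none lower (median 0.06 and 0.14), beside 2.13% and 2.74% of all genes that rose. Traf1, an NF-kB-induced adaptor of several TNF receptors, read 8.12, 7.58 and 7.49 in untreated and 9.03, 8.82 and 9.03 in irradiated WT cells. Its KO values were 6.93, 6.94 and 7.54 without and 8.23, 9.15 and 8.93 with irradiation. Traf1 rose by 1.23 (SE 0.24, limma adjusted p = 0.013) in WT and by 1.63 (SE 0.24, adjusted p = 0.0022) in KO cells.

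Tnfaip3, which encodes A20, an inhibitor of signalling from TNF receptors, rose by 0.52 (SE 0.13, limma adjusted p = 0.034) in WT and by 0.76 (SE 0.13, adjusted p = 0.0039) in KO cells. Map3k7, the kinase TAK1, rose in WT cells by 0.41 (adjusted p = 0.045) and had 0.21 in KO cells (adjusted p = 0.300). In KO cells the TRAF partner Tank rose by 0.53 (adjusted p = 0.016) and Birc3, the ubiquitin ligase cIAP2, by 0.46 (adjusted p = 0.031), with 0.24 and 0.40 in WT cells (adjusted p = 0.257 and 0.064). Several of these calls were lost with arrays left out or with other processing. In WT cells Map3k7 lost its call under 14, Tnfaip3 under 8 and Traf1 under 3 of 22 alternatives. In KO cells Birc3 lost it under 6 and Tank under 3.

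Of 4 genes for the release of TNF family ligands and receptors from the cell surface, 1 rose in WT and 2 in KO cells. Over all genes tested 2.13% rose in WT and 2.74% in KO cells. Rhbdf2, which encodes iRHOM2, a partner of the TNF-releasing protease ADAM17, read 6.86, 7.39 and 6.99 in untreated and 7.90, 8.17 and 8.33 in irradiated WT cells, and 7.40, 7.10 and 7.09 in untreated and 8.23, 8.35 and 8.64 in irradiated KO cells. It rose by 1.06 (SE 0.17, limma adjusted p = 0.0034) in WT and by 1.21 (SE 0.17, adjusted p = 0.0014) in KO cells, and both calls held under all 22 alternatives. Adam17 itself rose in KO cells by 0.71 (SE 0.16, adjusted p = 0.025), a call lost under 5 of 22 alternatives, and had 0.48 in WT cells (adjusted p = 0.124). The protease gene Adam10 and Rhbdf1 did not pass in either genotype. Tnf, a substrate of ADAM17, had 0.30 in WT and 0.85 in KO cells (adjusted p = 0.684 and 0.186), with KO values from 7.58 to 8.77 without and 8.53 to 9.72 with irradiation.

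Over the 4 lists of ligands, receptors, death signalling and TRAF pathway together, 5 of 58 genes tested passed in WT and 8 of 58 in KO cells, beside 4.83% and 5.94% of all genes. As the lists were chosen with earlier results of these data known, the counts are a description and no independent comparison with all genes. These counts moved when single arrays were left out, in WT cells also with KO arrays. Without untreated KO array 2 the WT differences of Tnfrsf23, Tnfaip3 and Map3k7 stayed at 0.84, 0.52 and 0.41. Their limma adjusted p was then 0.064, 0.052 and 0.065. In WT cells the count was 1 without untreated array 2 or 3, 2 without irradiated array 2 or 3 or untreated KO array 2, and 3 without the first WT array of either dose or untreated KO array 3. In KO cells it was 3 without untreated KO array 2, 5 without untreated KO array 3 or irradiated KO array 2 or 3, and 12 without the first irradiated KO array. Without the first irradiated arrays of both genotypes it was 5 in WT and 13 in KO cells.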

How the data were processed

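LSK cells of 12 samples were hybridised to Affymetrix arrays after cDNA amplification with a Pico kit, per the labels' protocols. The authors' deposited values are log2 expression values, 1 per probe set and array. The submitters' processing notes name oligo and RMA (background correction, quantile normalization, probe summary); their versions and the genome build are not given in the sources used. Array medians were 5.74 to 5.85. No column lacked a sample. The number of arrays limits the precision.

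Probe sets were named by the platform annotation: 23521 of 41345 had 1 symbol, 1814 several and 16010 none, and symbols were updated through RefSeq gene IDs (23328 matched). The brightest probe set stood for each of 22180 genes, and 15348 above 5.29 (the 40th percentile) in at least 3 arrays were tested. Of 10 members, 10 passed. A single linear model of all 4 groups of 3 was fitted (limma 3.58.1, R 4.3.3), two-sided, with Benjamini-Hochberg adjustment over all genes tested. The fit was run on simulated data with independent arrays, which does not cover the correlation between arrays described below. Gene lists came from textbook knowledge. The members and lists were chosen with earlier results of these data known. Named were the members, Zc3hc1, list genes past the test (up to 6 per list and contrast) and the 3 genes nearest to each leading member. Other genes named, such as partners, neighbours and relatives, were chosen after their values were seen.

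Whether replicate numbers pair the arrays was checked by correlating deviations from group means. Same-numbered WT arrays of both doses correlated at 0.42 to 0.49 and unlike-numbered ones at -0.37 to -0.08. The same-numbered ones were taken as paired by the data, not the labels. Untreated WT and KO arrays of the same number correlated at 0.10 to 0.23. The lowest, for number 3, was below the 0.14 of WT array 1 with KO array 3, so these were not read as pairs. The reported fit treated all arrays as unpaired, also in WT cells. KO arrays of both doses correlated at 0.47, -0.24 and -0.12, and irradiated WT and KO arrays at 0.34, -0.29 and 0.28. With the replicate block within genotype, 1228 genes in place of 742 passed in WT cells. Alternatives covered the brightness limit, scaling, variance prior, arrays in the fit, replicate block, probe sets and single arrays left out.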

Additional observations from a re-analysis of the deposited data

How the results depend on the processing

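Of 1422 single-gene values recomputed under alternatives, 1309 kept direction and side of the threshold (for the members' irradiation differences, which had no test, direction and size within 1 SD), 45 members' values past no test changed sign, 68 lost a call and none that was called changed sign. No member passed the test in a genotype contrast or the interaction under any of the 21 alternatives run for each, while 17 of these 30 estimates changed sign in at least 1. The number of genes past the limma test after irradiation, 742 in WT and 911 in KO cells, was 557 in KO with only the arrays compared. With the replicate block within genotype it was 1228 in WT and 1390 in KO cells (717 and 868 of them among the reported ones), and with the replicate block over all groups 1076 and 1224. Leaving out single arrays gave 317 to 1042 in WT, lowest without untreated WT array 3 (338 without array 2, 348 without irradiated WT array 3), and 392 to 1576 in KO cells. In KO it was 484 without untreated array 1, 392 without 2, 468 and 533 without irradiated arrays 2 and 3 and 1576 without 1. Without the irradiated arrays numbered 1 of both genotypes, a choice made after seeing the data, 1146 and 1701 passed, and the lists held 13 calls in KO cells. The 5 list genes called in WT became 3 without a brightness limit, 2 with array medians subtracted, 3 with only the arrays compared and 1 to 5 with single arrays left out. The 8 in KO became 5 with only the arrays compared and 3 to 12 with single arrays left out. The replicate block changed neither list count by more than 1.5 times (6 and 8 over all groups, 5 and 10 within genotype) and no call of a named gene or member was lost under it. In KO cells untreated array 2 correlated best with irradiated array 3 (0.44) and 3 with 2 (0.52), so the number is no pairing there. A block with those pairs was not run. The cause of these changes was not tested. The median standard error of 0.15 for a simple contrast and 0.21 for the interaction limits which small differences could be seen.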
